A study of Mus musculus with 8 samples.

Results

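Desmosomal gene expression was examined in 4 murine lines of lung squamous cell carcinoma (LUSC) taken from engineered mouse models. The genes were the 10 rows of the deposited tables named Dsc1, Dsc2, Dsc3, Dsg2, Dsg3, Dsp, Jup, Pkp1, Pkp2 and Pkp3, out of 55487 genes in all. Each line, PLA4, PLA, PL12 and PL1, had 2 bulk RNA-seq libraries, 8 in all. The study asked about ACKR3, a chemokine receptor of the atypical group, after its loss, and its names set PLA lines (PLA4, PLA) beside PL lines (PL12, PL1). The labels do not spell out the letters of the names. The driver alleles, the way Ackr3 was lost, the age of the mice and whether a line is 1 clone are not given in the sources used here, and no treatment is named. Separate cultures are not stated for the 2 libraries of any line. The p-values between lines therefore rest on differences between libraries that may be technical repeats.

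Desmosomes are patches on the cell membrane that couple the keratin filaments of neighbouring epithelial cells. Desmocollins (Dsc) and desmogleins (Dsg), both cadherins, bind across the gap between cells. Inside, their tails carry plakoglobin (Jup) and plakophilins (Pkp), and these hold desmoplakin (Dsp), which grips the keratins. Dsg2, Dsc2 and Pkp2 are also made by simple epithelia and heart. In stratified epithelium Dsg3 and Dsc3 are typical of the basal and lower layers, and Dsg1 and Dsc1 of the upper layers.

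The libraries held 48857960 to 142458281 expected counts, and 11983 to 12494 genes reached 1 CPM (counts scaled to library size). Ackr3 stood at 0.387 and 0.228 CPM in PLA4 and at 0.0487 and 0.0254 CPM in PLA, against 25.3 and 26.3 CPM in PL12 and 86.3 and 33.2 CPM in PL1. Its level thus followed the line names. Of 6 epithelial or squamous markers, all were at 1 CPM or more in each line, and Ptprc, the pan-leukocyte marker, was at most 0.0264 CPM in any library. The 8 immune markers summed to 5.52 to 83.9 CPM per library, with Cd3e at 0 counts. Itgam made up most of the sum in PLA, with 51.5 CPM in replicate 1 and 48.1 CPM in replicate 2. No library of another line had more than 1.004 CPM of it. The PLA libraries also had the most Cd68, 29.0 and 27.2 CPM, against 1.92 to 14.9 CPM in the other lines. Csf1r was highest in PL12, at 12.3 and 11.1 CPM. The source of these transcripts was not tested. The 4 endothelial markers summed to 0.368 to 2.44 CPM. Libraries of PLA were close to each other, with 1 gene over 2-fold apart among those averaging at least 5 CPM. Those of PLA4 and PL1 were not, with 945 and 787 such genes, and PL12 had 35. The 8 fibroblast markers summed to 282 CPM in PL1 replicate 2, against 3.08 CPM in replicate 1 and 0.762 to 10.4 CPM in the other libraries. Col1a1 made up 254 CPM of it. Dcn, Col3a1, Pdgfra and Pdgfrb stood there at 10.7, 8.48, 4.70 and 4.29 CPM, while Col1a2 and Lum were at 0.176 and 0.0176 CPM and Thy1 had 0 counts. Pdgfra was not particular to that library, with 2.47 CPM in PL1 replicate 1 and 4.67 and 7.68 CPM in PLA4.

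All 10 desmosomal genes had counts in at least 1 library, and 9 passed the filter on low counts for comparisons between lines. The exception was Dsc1. Dsc3 passed through the PLA lines alone, which means that it had to differ between lines. Because bulk RNA was measured, fewer cells that express a gene and less of its RNA per cell cannot be told apart. Levels are compared between genes in the deposited TPM, which is scaled for transcript length, and between lines in CPM and in edgeR's quasi-likelihood test on counts. A gene was called where its Benjamini-Hochberg adjusted p, over all 18648 genes tested, was under 0.05.

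**Figure D1:**
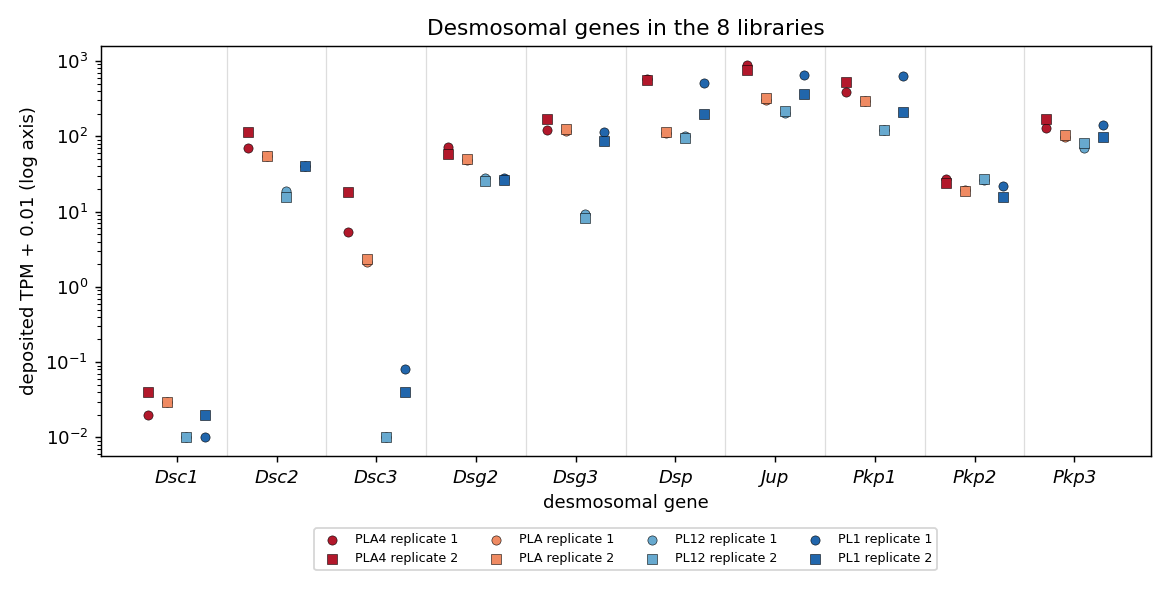
Deposited TPM plus 0.01 on a log axis for the 10 desmosomal genes, with 1 point per library, coloured by line and shaped by replicate. Jup, Pkp1 and Dsp lie highest, Dsg3 drops to 8.16 and 9.20 TPM in PL12, and Dsc3 is above 2 TPM in the PLA4 and PLA libraries only.

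Dsc2 was the main desmocollin in every line. It made up 92.9% and 86.5% of the summed desmocollin TPM in PLA4, 96.2% and 95.8% in PLA, 100% in both PL12 libraries, and 99.8% and 99.9% in PL1. Dsc3 made up nearly all of the rest, with 7.06% and 13.5% in PLA4, 3.74% and 4.13% in PLA, none in PL12, and 0.176% and 0.0752% in PL1. The PLA lines thus added a minor share of the basal-layer desmocollin to a Dsc2 background.

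Dsc2 RNA itself (ENSMUSG00000024331.11) was graded over the lines. It stood at 203.5 and 339.6 CPM in PLA4, 159.4 and 159.7 CPM in PLA, 59.3 and 47.0 CPM in PL12, and 119.9 and 112 CPM in PL1. Every PLA4 and PLA library lay above every PL12 and PL1 library. Dsc2 rose in PLA4 against PL12 (log2 fold change 2.35 ± 0.26 SE, adjusted p = 0.00179) and against PL1 (1.23 ± 0.251, adjusted p = 0.0377), and in PLA against PL12 (1.59 ± 0.254, adjusted p = 0.00498). In the order PLA4, PLA, PL1, PL12, PLA and PL1 did not pass in edgeR (adjusted p = 0.21), but did without PLA4 replicate 1 (0.0487). The first neighbours did not pass in edgeR either (adjusted p = 0.0614), but were called by DESeq2 (0.0173), with a filter of 1 CPM (0.0397), with no filter (0.0295) and without PLA4 replicate 1 (0.00747). PL12 fell below PL1 (log2 fold change -1.13 ± 0.251, adjusted p = 0.0236). The call of PLA4 against PL1 ended without any single library of PL12, PL1 or PLA (adjusted p from 0.0747 to 0.106), and that of PL12 against PL1 without any single library of the same 3 lines (0.0507 to 0.15).

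Dsc3 (ENSMUSG00000059898.9) separated the families by orders of magnitude. Its counts were 2016 and 7733 in PLA4, 781 and 754 in PLA, 0 and 0 in PL12, and 2 and 4 in PL1. That is 15.6 and 53.5 CPM in PLA4 and 6.35 and 6.38 CPM in PLA, against 0 in PL12 and 0.023 and 0.0353 CPM in PL1. A count of 0 allows up to 0.0614 CPM in the shallower PL12 library. Pooled over libraries, PLA4 was 1190-fold above PL1 (95% counting interval 546 to 3243) and PLA 212-fold (97.4 to 580). Against a floor of 3 counts over the line PL12, Dsc3 was at least 1872-fold higher in PLA4 and at least 334-fold higher in PLA. Without PLA4 replicate 2 the bound for PLA4 was 820-fold, and without replicate 1 it was 2813-fold. Because Dsc3 entered the test through the PLA lines, its calls against the PL lines are not read as a result. Dsc3 rose in PLA4 against PLA (log2 fold change 2.44 ± 0.586, adjusted p = 0.0318). PLA4 replicate 2 held 3.43 times the level of replicate 1, and the log2 fold change over PLA was 1.36 without replicate 2 and 3.07 without replicate 1. The call of PLA4 over PLA was lost without either library of PLA (adjusted p = 0.161 and 0.159). The difference between PL12 and PL1 rests on 6 counts, and the TPM of Dsc3 in PL1, 0.07 and 0.03, does not follow its 2 and 4 counts.

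Dsc1 (ENSMUSG00000044322.7), the upper-layer desmocollin, was at the limit of detection. It had 3 and 10 counts in PLA4 and 6 and 7 in PLA, against 0 and 0 in PL12 and 0 and 1 in PL1. The 26 counts of the PLA lines and 1 of the PL lines give a ratio of 18.1 with a counting interval from 2.97 to 741.

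Desmogleins split the lines in another way, with PL12 standing alone. Dsg3 made up 62.6% and 74.7% of the summed TPM of Dsg2 and Dsg3 in PLA4, 71.4% and 71.2% in PLA, 24.6% and 24.1% in PL12, and 80.3% and 77.1% in PL1. PL12 was thus the line in which Dsg2 outweighed Dsg3. The share in PL12 did not overlap with that of any other line. With 2 libraries per line an exact permutation test between lines could not go below p = 0.333, so the shares were not tested.

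Dsg3 (ENSMUSG00000056632.8) stood at 493 and 700.3 CPM in PLA4, 484 and 501 CPM in PLA, 40.7 and 34.2 CPM in PL12, and 476 and 342 CPM in PL1. PL12 lay far below the other lines, whose levels were near each other. In PLA4 it was 15.9 times and in PLA 13.1 times the level of PL12 (log2 fold changes 3.99 ± 0.267 and 3.72 ± 0.263, adjusted p = 4.84e-04 and 5.45e-04). Dsg3 fell in PL12 against PL1 (log2 fold change -3.45 ± 0.26, adjusted p = 0.00112). In the order PLA4, PLA, PL1, PL12, neither of the first 2 steps passed (adjusted p = 0.412 and 0.426). The Dsg3 calls against or in PL12 stood in each of 16 alternatives.

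Dsg2 (ENSMUSG00000044393.15) followed the family names instead. It stood at 271 and 219 CPM in PLA4 and 178 and 188 CPM in PLA, against 116 and 99.7 CPM in PL12 and 108 and 93.8 CPM in PL1. Each PLA4 and PLA library lay above each PL12 and PL1 library. Dsg2 rose 2.28-fold and 2.43-fold in PLA4 over PL12 and PL1 and 1.70-fold and 1.81-fold in PLA over PL12 and PL1 (largest adjusted p = 0.0119, edgeR). PL12 and PL1 did not pass against each other (adjusted p = 0.694). PLA4 and PLA did not pass in edgeR (adjusted p = 0.0895), but did with a filter of 1 CPM (0.0401) and without PLA4 replicate 2 (0.0311). The calls of PLA against both PL lines ended without PLA replicate 1 (adjusted p = 0.0864 and 0.0906) or replicate 2 (0.107 and 0.106). That of PLA against PL12 also ended without PL12 replicate 2 (0.0879), and that of PLA4 against PL1 without either library of PLA (0.0528 each).

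Of the 6 epithelial or squamous markers, Krt5, Krt14, Trp63 and Sox2 were likewise lowest in both libraries of PL12. Epcam and Cdh1, which are not particular to squamous or basal cells, were not. The summed CPM of all 6 was 13290 and 14870 in PLA4, 11550 and 11320 in PLA, 2157 and 2100 in PL12, and 14460 and 7012 in PL1. Trp63, the master factor of basal squamous cells, stood at 306 and 386 CPM in PLA4, 352 and 360.4 CPM in PLA, 29.2 and 26.3 CPM in PL12, and 381 and 373 CPM in PL1. The 7 glandular or simple epithelial markers summed to 3699 and 123 CPM in PLA4, 4721 and 4539 CPM in PLA, 7262 and 8088 CPM in PL12, and 909 and 793 CPM in PL1. Scgb1a1 had 0 counts throughout. The part of these markers in the Dsg3 level was not tested.

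**Figure D2:**
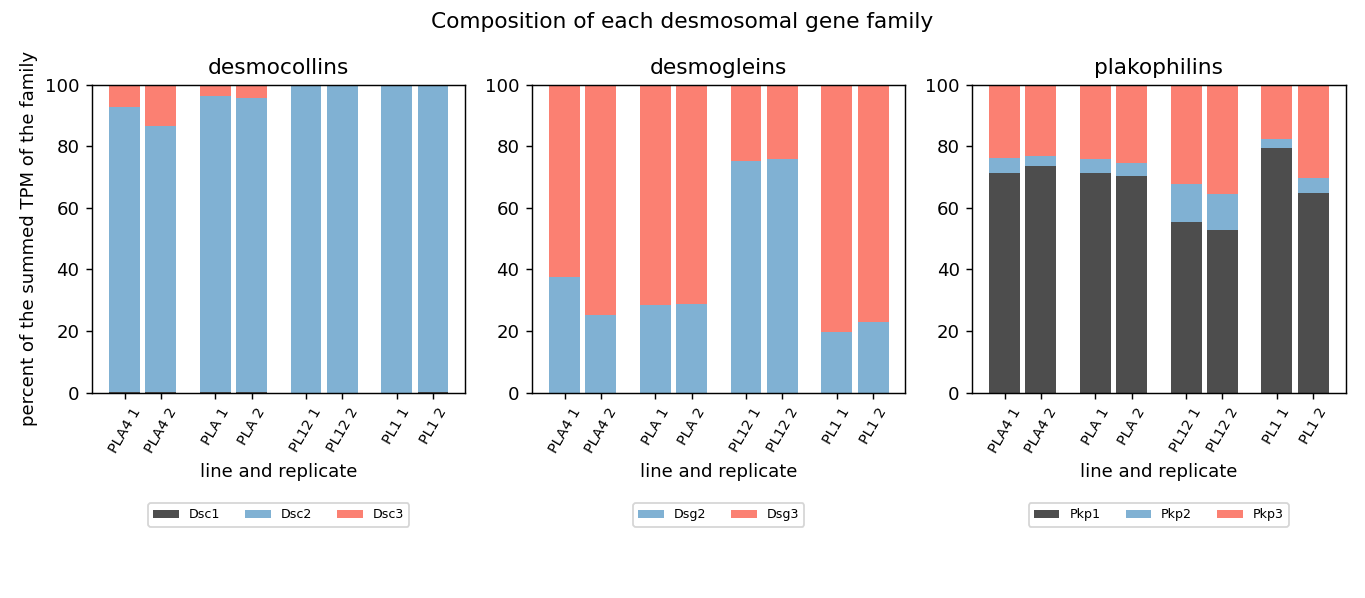
Percent of the summed TPM of each family held by its members, with 1 stacked bar per library. Dsc2 fills at least 86.5% of every desmocollin bar, and Dsg3 falls to 24.6% and 24.1% of the desmogleins in PL12.

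The desmosomal cadherin genes lie in 1 cluster of 9 protein-coding genes on chromosome 18 (GRCm38, 19960930 to 20604521). The order is Dsc3, Dsc2, Dsc1, Dsg1c, Dsg1a, Dsg1b, Dsg4, Dsg3, Dsg2, with the desmocollins on the minus strand and the desmogleins on the plus strand. Dsc2, Dsg3 and Dsg2 carried most of the transcripts of the cluster, and the genes between Dsc2 and Dsg3 were near 0. The 4 inner desmogleins together reached 0.04 and 0.95 TPM in PLA4, 0.19 TPM in both PLA libraries, 0.01 and 0 TPM in PL12, and 0.05 and 0.03 TPM in PL1. Dsg1b, a desmoglein 1 gene, had 315 counts in PLA4 replicate 2 and 5 in replicate 1, and at most 7.73 in the other lines. Dsg1c had 59.0 and 56.7 counts in PLA and at most 9 elsewhere. Dsg1a, Dsg1b and Dsg1c are close copies, so the authors' counting may have split their shared reads. Dsg3 and Dsg2 are adjacent on the same strand, and of this pair Dsg3 fell in PL12 against PL1 while Dsg2 was not called there.

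**Figure D3:**
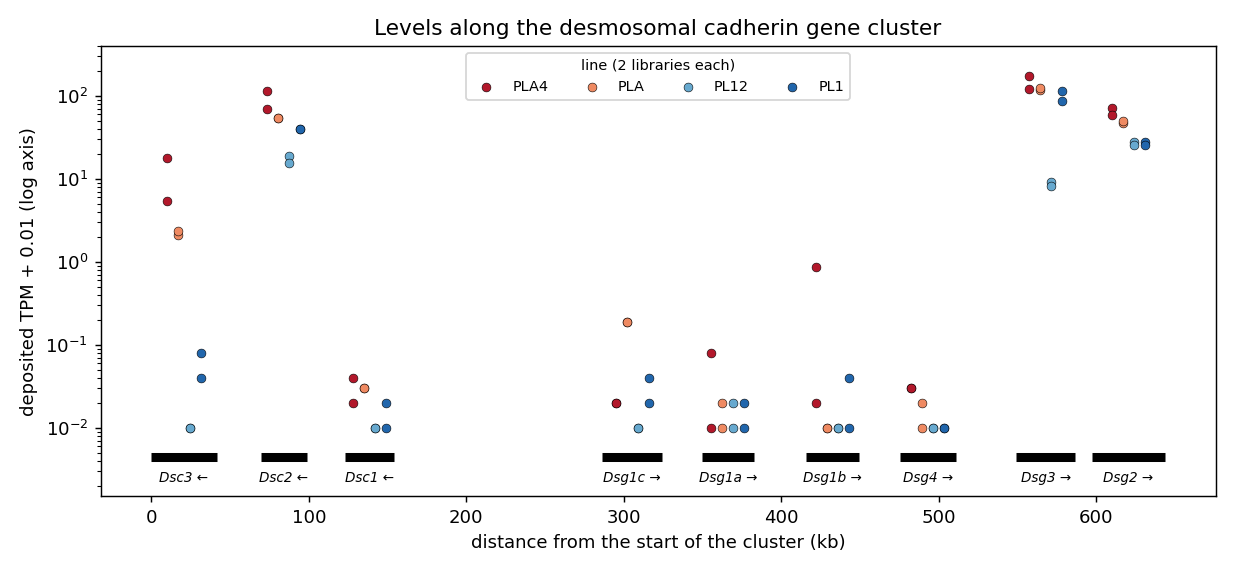
TPM plus 0.01 on a log axis for each library, by distance in kb from the start of the cadherin gene cluster, with black bars for genes and arrows for their strand. The outer genes Dsc2, Dsg3 and Dsg2 are above 8 TPM in all libraries, while the 4 inner desmogleins stay under 1 TPM.

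Desmoplakin and plakoglobin, the plaque proteins that every desmosome needs, had another order of line means, with PLA4 first and then PL1, PLA and PL12. Pkp1 and Pkp3 had it too, but no neighbours in it passed in edgeR for Pkp1 (adjusted p = 0.902, 0.434 and 0.111) or Pkp3 (0.495, 0.225 and 0.418). The share of all genes with this order was not counted, so it only describes the means. Dsp (ENSMUSG00000054889.10, chromosome 13, 38151294 to 38198577) stood at 3421 and 3269 CPM in PLA4, 634 and 651 CPM in PLA, 661 and 594 CPM in PL12, and 3060 and 1120 CPM in PL1. PLA4 and PL1 libraries were all above those of PLA and PL12. Dsp rose 5.33-fold in PLA4 over PL12 (log2 fold change 2.41 ± 0.447, adjusted p = 0.0088) and 5.21-fold over PLA (2.38 ± 0.446, adjusted p = 0.0117). It fell in PLA against PL1 (log2 fold change -1.70 ± 0.436, adjusted p = 0.0324) and in PL12 against PL1 (-1.74 ± 0.436, adjusted p = 0.034). PLA4 against PL1 (adjusted p = 0.337) and PLA against PL12 (adjusted p = 0.961) did not pass.

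Jup (ENSMUSG00000001552.14, chromosome 11, 100368958 to 100397763) stood at 1421 and 1260 CPM in PLA4, 495 and 512 CPM in PLA, 348 and 363 CPM in PL12, and 1107 and 573 CPM in PL1. The lines kept the order seen for Dsp, with a smaller range of 3.77-fold between the highest and lowest mean. Jup rose in PLA4 over PL12 (log2 fold change 1.91 ± 0.306, adjusted p = 0.00551) and over PLA (1.41 ± 0.302, adjusted p = 0.0174), and fell in PL12 against PL1 (-1.24 ± 0.301, adjusted p = 0.0304). No neighbours in the order PLA4, PL1, PLA, PL12 passed in edgeR with all libraries (adjusted p = 0.191, 0.11 and 0.226). DESeq2 called Jup lower in PLA against PL1 (log2 fold change -0.77, adjusted p = 0.0452), as did edgeR without PL1 replicate 2 (-1.19, adjusted p = 0.00471). PLA4 against PL1 passed without PL1 replicate 1 (1.23, adjusted p = 0.0134), and PLA against PL12 without PL1 replicate 1 (adjusted p = 0.0222) or replicate 2 (0.0363).

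The 2 PL1 libraries differed widely in these genes. Replicate 2 had 0.366 of the Dsp and 0.518 of the Jup level of replicate 1. The library with fewer plaque transcripts was the one with Col1a1 at 254 CPM, and the part of fibroblast markers in this was not tested. Without PL1 replicate 1 the log2 fold change of Dsp was -0.80 for PLA against PL1 and -0.84 for PL12 against PL1, and both still passed (adjusted p = 0.0211 and 0.0185). Without PL1 replicate 2 it was -2.31 for PLA against PL1. Dsp in PLA4 against PL1, not called with all libraries, passed without PL1 replicate 1 (log2 fold change 1.58, adjusted p = 0.00775). The Dsp calls ended without a single library of PL12 or PLA, with adjusted p from 0.0671 to 0.178. For PLA4 against PL12 this was either library of PL12, for PLA4 against PLA either of PLA, and for the 2 falls any of the 4. For Jup, PLA4 against PL12 ended without PL12 replicate 1 (0.0539), PLA4 against PLA without either library of PLA (0.114 and 0.106), and PL12 against PL1 without any single library of PL12 or PLA (0.0767 to 0.164).

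Against the cadherins, desmoplakin was scarce in PLA. The ratio of Dsp to the summed TPM of the 5 cadherins was 2.14 and 1.54 in PLA4, 0.49 and 0.489 in PLA, 1.79 and 1.94 in PL12, and 2.80 and 1.30 in PL1. PLA was thus the line with less Dsp than cadherin transcript. Jup exceeded Dsp in every library, from 1.26 times in PL1 replicate 1 to 2.80 times in PLA replicate 2.

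Of the 10 genes, Dsp and Jup have a promoter in the RefSeq table used here (build GRCm38.p6). The 250 bases before each RefSeq start are shown to compare their sequence, 5′ to 3′ on the gene's strand, with GC-box matches (GGGCGG on either strand) in capitals. Dsp is at chr13:38151044-38151293 on the plus strand and Jup at chr11:100397791-100398040 on the minus strand.
Dsp: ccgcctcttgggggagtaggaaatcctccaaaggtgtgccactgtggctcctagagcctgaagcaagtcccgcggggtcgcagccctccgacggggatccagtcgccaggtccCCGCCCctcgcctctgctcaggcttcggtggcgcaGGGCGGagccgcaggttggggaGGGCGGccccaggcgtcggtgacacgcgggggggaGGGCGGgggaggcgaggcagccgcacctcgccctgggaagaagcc
Jup: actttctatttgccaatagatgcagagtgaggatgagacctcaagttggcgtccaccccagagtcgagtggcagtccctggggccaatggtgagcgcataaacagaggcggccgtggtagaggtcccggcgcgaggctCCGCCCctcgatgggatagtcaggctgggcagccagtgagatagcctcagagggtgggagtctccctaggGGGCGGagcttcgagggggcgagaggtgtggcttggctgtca
The Dsp window held 4 GC boxes, at 137, 102, 80 and 45 bases before the start, and the Jup window 2, at 112 and 42 bases. Of 32817 promoter windows of the same length, 32.7% held at least 1. G and C made up 72.4% of the Dsp window and 62% of the Jup window. Neither held the AP-1 letters TGANTCA (6.75% of windows), the Grainyhead-like letters AACCGGTT (0.116%) or the E-box CACCTG (17.2%) on either strand. Since GC boxes alone were found, no 2 motifs overlapped.

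Plakophilins, the armadillo proteins that cluster desmosomal cadherins, come in 3 kinds here. Pkp1, typical of stratified epithelium, was the leading plakophilin in all 8 libraries. It made up 71.3% and 73.5% of plakophilin TPM in PLA4, 71.3% and 70.3% in PLA, 55.6% and 52.9% in PL12, and 79.7% and 64.8% in PL1. Pkp2, the plakophilin of simple epithelium and heart, made up 5.04% and 3.29% in PLA4, 4.74% and 4.43% in PLA, 12.2% and 11.6% in PL12, and 2.75% and 4.89% in PL1. PL12 thus had the highest share of Pkp2 and the lowest of Pkp1. Of the 5 muscle markers, Tnnt2 stood at 65.5 and 70.4 CPM in PL12 and 2.32 to 8.11 CPM in the other lines. Ttn and Myh3 were at most 0.309 CPM in any library, and Myh6 and Actn2 had 0 counts in PL12. The part of these markers in the Pkp2 share was not tested.

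Pkp1 (ENSMUSG00000026413.12, chromosome 1, 135871395 to 135919207) stood at 1173 and 1597 CPM in PLA4, 870.2 and 865 CPM in PLA, 391 and 377 CPM in PL12, and 1947 and 600.2 CPM in PL1. The PL1 libraries held both the highest and, outside PL12, the lowest value. Pkp1 rose in PLA4 against PL12 (log2 fold change 1.85 ± 0.511, adjusted p = 0.0326), and the F test over the 4 lines did not pass (adjusted p = 0.0695). In PL12 against PL1 it did not pass in edgeR (adjusted p = 0.053). There it was called lower by DESeq2 (0.00269), with a filter of 1 CPM (0.0487) and with no filter (0.0075). With no filter it was also called higher in PLA against PL12 (0.0356). Pkp2 (ENSMUSG00000041957.15, chromosome 16, 16213318 to 16272712) stood at 51.4 and 44.2 CPM in PLA4, 35.6 and 33.8 CPM in PLA, 52.4 and 51.6 CPM in PL12, and 41.6 and 28.1 CPM in PL1. It was called in none of the 6 comparisons (lowest adjusted p = 0.059, PLA against PL12; edgeR), and its F test did not pass (adjusted p = 0.0748). DESeq2 called it lower in PLA against PL12 (adjusted p = 0.0222) and higher in PL12 against PL1 (adjusted p = 0.0427).

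Pkp3 (ENSMUSG00000054065.12, chromosome 7, 141078218 to 141090510), which is made in most epithelia, stood at 192 and 243 CPM in PLA4, 136 and 138 CPM in PLA, 110.1 and 119 CPM in PL12, and 222 and 141 CPM in PL1. Its highest mean was 1.90 times its lowest. Pkp3 rose in PLA4 against PL12 (log2 fold change 0.92 ± 0.232, adjusted p = 0.0238) and differed over the lines (F test, adjusted p = 0.046). PLA4 against PLA did not pass in edgeR (adjusted p = 0.0725). Pkp3 was called higher there by DESeq2 (0.0262), with a filter of 1 CPM (0.0449) and with no filter (0.0455). DESeq2 also called it lower in PL12 against PL1 (0.0497), where edgeR did not (0.0838). The calls of Pkp1 and Pkp3 in PLA4 against PL12 ended without PLA4 replicate 2 or any single library of PL12 or PLA (adjusted p from 0.0577 to 0.156). In PL1 replicate 2, Pkp1 was at 0.308 and Pkp3 at 0.636 of the level of replicate 1. The Pkp1 log2 fold change of PLA against PL1, -0.55 with all libraries, turned to 0.53 without PL1 replicate 1, and that of PLA4 against PL1, 0.12, to -0.49 without PL1 replicate 2.

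PLA lines were set against PL lines to ask what accompanies ACKR3 loss. Over the 4 line comparisons between the families, Dsg2 was called higher in all 4 and 0 of the 9 genes tested lower, against 1.23% and 0.767% of all genes. Dsc3 was called in all 4 as well, 2 in all, but it had to differ and nothing is read from it. Without PL12 replicate 2 or either library of PLA, Dsg2 was not called in all 4, and without PLA4 replicate 1 Dsc2 was called too. With both libraries of each line summed, so that lines served as replicates, edgeR called 0 of 10 (0% of 18861 genes), with a lowest adjusted p of 0.852. At an unadjusted p under 0.05 stood Dsg2, and Dsc1 and Dsc3, 3 in all, against 4.6% of all genes. Dsc1 and Dsc3 entered this test through the PLA lines as well, so nothing is read from the count. DESeq2 called 1 on the same profiles, Dsc3, and 348 of all genes. The libraries of Dsc2, Dsg2 and Dsg3, and of Dsc3, lay higher in both PLA lines without overlap, 4 of the 9, and 0 of 9 lay lower (8.56% and 7.19% of all genes). Dsc3 is in that count through the filter and is no support for it. For Dsg3 the nearest libraries were PLA replicate 1 at 484 CPM and PL1 replicate 1 at 476 CPM. The libraries of Dsp, Jup, Pkp1, Pkp2 and Pkp3 overlapped between the families.

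Pairs of single lines were compared next (comparisons that share a line are not independent), with the shares of all genes called higher and lower in parentheses. These shares are from the fit with all libraries. Counts with a library left out have no such share beside them and only show how the calls depend on single libraries. A library of a line outside the pair can move a call through the spread that all lines share. Dsc3 is in each count of a PLA line against a PL line, and in that of the F test, through the filter, and is no support for them. In PLA4 against PL12, 8 of 9 genes were called higher and 0 lower (19.2% and 16.8% of all genes). Pkp2 alone was not called, and the count fell to 4 without PL12 replicate 1 and 5 without PL12 replicate 2. In PLA against PL12, 4 genes were called higher and 0 lower (20.4% and 17.3%), all of them cadherins, Dsc2, Dsc3, Dsg2 and Dsg3. Without either library of PL1, 6 were called higher, with Jup and Pkp1 added, and 1 lower, Pkp2.

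Against PL1 fewer genes were called. PLA4 against PL1 gave 3 higher, Dsc2, Dsc3 and Dsg2, and 0 lower (4.62% and 3.93%), with 6 called higher without PL1 replicate 1 and 1, Dsc3, without either library of PLA. PLA against PL1 gave 2 higher, Dsc3 and Dsg2, and 1 lower, Dsp (14.4% and 12.9%), with 2 higher and 4 lower, Dsp, Jup, Pkp1 and Pkp3, without PL1 replicate 2, and Dsc3 alone without either library of PLA.

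Lines of the same family also differed. PLA4 against PLA gave 3 higher, Dsc3, Dsp and Jup, and 0 lower (14.1% and 14.9%), with 6 called higher without either library of PL1 and 0 without either library of PLA. PL12 against PL1 gave 0 higher and 4 lower, Dsc2, Dsg3, Dsp and Jup (11.2% and 12.5%), with Dsg3 alone called without any single library of PL12 or PLA. Dsp and Jup were thus called within each family. The F test over the 4 lines called 7 of 9, all but Pkp1 and Pkp2 (52.9% of all genes).

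The plot of fold changes shows the contrasts side by side. PL12 had the lowest line mean for 7 of the 9 genes (31.1% of all genes) and PLA4 the highest for 8 (24.7%). Dsc3 is in both counts and, as it passed the filter through the PLA lines, is no support for them. Summed over the 10 genes, TPM was 2277 and 2402 in PLA4, 1041 and 1080 in PLA, 577 and 592 in PL12, and 2134 and 1039 in PL1. PL1 replicate 2 thus reached the level of PLA, while replicate 1 was near PLA4.

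**Figure D4:**
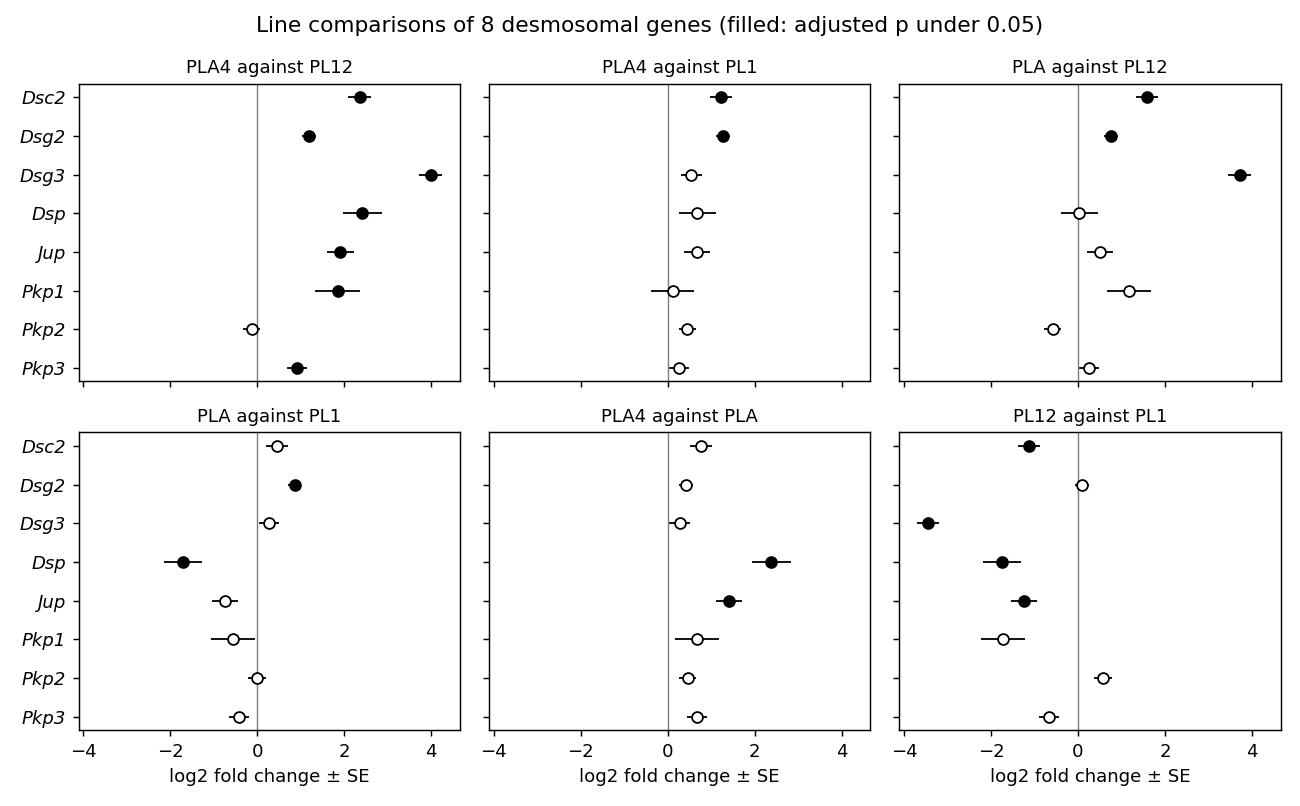
Log2 fold change with its standard error for 8 desmosomal genes in the 6 comparisons of lines, first line over second, with filled points where adjusted p is under 0.05 (edgeR). Dsc1 and Dsc3 are not drawn. Dsg3 stands at 3.99 and 3.72 in PLA4 and PLA against PL12 and at -3.45 in PL12 against PL1.

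The 4 lines had these mixtures. PLA4 had the highest levels of Dsc2, Dsc3, Dsg2, Dsg3, Dsp, Jup, Pkp1 and Pkp3 by line mean. PLA had the lowest ratio of Dsp to cadherin transcript. PL12 had more Dsg2 than Dsg3, beside Dsc2, and no Dsc3 count. PL1, like PLA4 and PLA, paired Dsc2 with more Dsg3 than Dsg2, and it had 6 counts of Dsc3.

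Other junction genes were counted from lists chosen with earlier results of these data known. Each count stands beside the share of all genes called higher and lower in its comparison. Of 9 further desmosome genes 7 were tested, and 3 were called higher and 1 lower in PLA4 against PL12 (19.2% and 16.8% of all genes), and 1 higher and 1 lower in PL12 against PL1 (11.2% and 12.5%). Perp, a tetraspan membrane protein of desmosomes and a p63 target, stood at 3704 and 4326 CPM in PLA4, 1487 and 1421 CPM in PLA, 447 and 392 CPM in PL12, and 1199 and 957 CPM in PL1. Perp rose in PLA4 against PLA, PL12 and PL1 and in PLA against PL12, and fell in PL12 against PL1. The plakin Ppl was lowest in PL1, with 90.9 and 124.5 CPM in PLA4, 128 and 138 CPM in PLA, 169.8 and 174 CPM in PL12, and 36.1 and 33.6 CPM in PL1. Its relative Evpl rose in PLA4 against each other line.

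Adherens junctions couple the actin filaments of neighbouring cells. Of 13 of their genes tested, 2 were higher and 1 lower in PLA4 against PL12 (19.2% and 16.8% of all genes), 0 and 0 in PLA4 against PL1 (4.62% and 3.93%), and 1 and 3 in PL12 against PL1 (11.2% and 12.5%). Cdh1, the E-cadherin gene, stood between 631 and 807 CPM in all 8 libraries and was called in none of the 6 comparisons (lowest adjusted p = 0.298). Cdh3, P-cadherin, was at 257 and 231 CPM in PLA4, 261 and 267 CPM in PLA, 67.5 and 65.8 CPM in PL12, and 450.4 and 273 CPM in PL1. Nectin1, a nectin of epithelial junctions, fell in PL12 against PL1 (log2 fold change -2.53 ± 0.194, adjusted p = 0.00117), while Afdn, its actin linker, rose (1.72 ± 0.177, adjusted p = 0.00252).

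Hemidesmosome genes, which anchor basal cells to the matrix, were called higher in PLA4 against PL12 for 4 of 11 and lower for 0 (19.2% and 16.8% of all genes), and in PL12 against PL1 higher for 0 and lower for 3 (11.2% and 12.5%). Col17a1 was at 1990 and 3968 CPM in PLA4, 1420 and 1408 CPM in PLA, 199.8 and 190.6 CPM in PL12, and 2154 and 827 CPM in PL1. Of 14 keratins tested, 7 were higher and 1 lower in PLA4 against PL12, and 3 higher and 6 lower in PL12 against PL1, beside the same shares of all genes. Krt5, the basal keratin that desmosomes hold, fell in PL12 against PL1 (log2 fold change -3.72 ± 0.372, adjusted p = 0.00232). Other keratins of the list lay the other way. Krt8 was at 2941 and 3171 CPM in PL12 against 296 and 225 CPM in PL1, and Krt18 at 2268 and 2572 CPM against 38.9 and 44.9 CPM. The medians over lists for PLA4 against PL12 were 1.19, 0.08, 1.04 and 2.39 on the log2 scale for further desmosome, adherens junction, hemidesmosome and keratin genes, against 0.02 over all genes.

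Of 19 factors known to act on desmosome genes, 15 differed over the lines, against 52.9% of all genes. Trp63 fell in PL12 against PL1 (log2 fold change -3.77 ± 0.167, adjusted p = 3.89e-04), and Snai2, a repressor that basal cells also make, fell with it (-3.59 ± 0.172, adjusted p = 4.60e-04). Tcf7l1 was called higher in both PLA lines against both PL lines (largest adjusted p = 0.02) and Lef1 lower (largest adjusted p = 0.02), 1 gene each way (1.23% and 0.767% of all genes). Lef1 was under 0.4 CPM in every library, with 1 and 1 counts in PLA4 and 0 and 0 in PLA. It passed the filter through the PL lines alone, so it had to differ and nothing is read from its call. Of 8 proteases and enzymes tested, 5 differed over the lines, against the same 52.9%, among them Egfr, at 113 and 104 CPM in PLA4, 249 and 259 CPM in PLA, 481 and 433 CPM in PL12, and 148 and 120 CPM in PL1. Klk5 and Klk7, proteases that cleave desmosomal cadherins in skin, had 0 counts in all libraries.

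Genes with the most similar profile were sought by Pearson correlation of log2(CPM + 1) over the 8 libraries among 10166 genes. The libraries come from 4 lines and share their depth and scaling, so these values only describe likeness. Nsun6, Pex7 and Fam83f were closest to Dsc2 (r = 0.993, 0.992 and 0.988), and Mrpl41, Cyp27a1 and Pi4k2a to Dsc3 (0.991, 0.989 and 0.987). Twf1, Zfp706 and Hars2 were closest to Dsg2 (0.991, 0.99 and 0.99), and Rnf181, Eif4e3 and Itgb5 to Dsg3 (0.996, 0.995 and 0.995). Eif4e3, a cap-binding protein, stood at 46.2 and 62.7 CPM in PLA4, 51.5 and 48.6 CPM in PLA, 4.26 and 4.97 CPM in PL12, and 52.6 and 31.1 CPM in PL1. Like Dsg3 it was lowest in both libraries of PL12.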

How the data were processed

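Bulk RNA was measured in 8 libraries of 4 lines, 2 per line. Per the labels' protocols, RNA was purified on columns, cDNA made by the SMARTer PCR method and libraries by Nextera XT, which does not mark strand. The submitters' processing notes name the tools STAR, RSEM, FastQC and DESeq2, with no versions, and the build GRCm38. Their gene annotation has no release named in the sources used here. The authors deposited expected counts (estimated counts per gene) and TPM, per the file headers. TPM keeps no depth. Of the count values 14.2% were not whole (tolerance 1e-06), and all were rounded before testing.

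Counts were tested with edgeR 4.0.16 (R 4.3.3) after TMM scaling and filterByExpr (minimum count 10, total 15), fitting the 8 libraries by line on 18648 genes (4 residual degrees of freedom), and on counts summed per line on 18861 genes. CPM uses TMM factors. Alternatives used DESeq2 1.42.0 and its size factors, other filters, left-out libraries or lines and a replicate block. The tests were tested on simulated data. That simulation gave all genes the same spread and the lines of a family equal means, unlike these data, so no support is drawn from it. A scaling with DESeq2's size factors moved the median of all genes by at most 0.06 in size on the log2 scale. Standard errors come from the F statistic. Counting intervals (95%, exact binomial) and floors (3 counts) cover counting error only. Coordinates are from GENCODE mouse release 21 on GRCm38, matched by identifier (54349 with version). Genes annotated within Dsp, Dsg2 and Pkp1 (Gm10129, Gm16090, Gm36938) held at most 479, 13.2 and 26 counts in a library.

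The genes and lists were chosen with earlier results of these data known. The genes named from a list were Ackr3, up to 4 per list with the smallest p over the 4 lines (mean at least 1 CPM), those called in all 4 line comparisons, members needed to describe a list, the inner desmogleins, and the 3 most similar genes for each of Dsc2, Dsc3, Dsg2 and Dsg3 (mean at least 5 CPM).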

Additional observations from a re-analysis of the deposited data

How the results depend on the processing

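The count of genes that differed over the 4 lines stayed within 1.5 times of its value in every alternative run. Labels name no shared day or culture for equal replicate numbers. Replicate 2 minus replicate 1 correlated from -0.26 to 0.03 across genes between lines, which cannot settle whether the numbers pair the libraries. For PLA lines against PL lines the replicate block was fitted on the 8 separate libraries, not on summed profiles, and 0 were called. That fit takes the libraries of a line as replicates of a family, so nothing is read from it. Between lines, with the replicate block, the counts were 2 in all 4 line comparisons, 6 in the F test, and 8, 2, 4, 3, 3 and 3 in PLA4 against PL12, PLA4 against PL1, PLA against PL12, PLA against PL1, PLA4 against PLA and PL12 against PL1. Under it Dsc2 in PLA4 against PL1 (adjusted p = 0.078) and Dsp in PL12 against PL1 (0.0507) were not called. A block with the numbers of PL1 and PL12 exchanged, chosen after seeing the data, gave 8, 3, 4, 3, 3 and 4 in these comparisons.

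DESeq2 called 1 gene on summed profiles, 5 in PLA4 against PLA and 7 in PL12 against PL1. In PLA4 against PLA, a filter of 1 CPM gave 6 and no filter 5. Without PL1 replicate 1 and PLA4 replicate 2 the counts were 5 in all 4 comparisons, 9 in PLA4 against PL1, 7 in PLA against PL12, 8 in PLA against PL1, 8 in PLA4 against PLA and 8 in PL12 against PL1. Without PL1 replicate 2 and PLA4 replicate 1 they were 5 in PLA4 against PL1, 8 in PLA against PL12, 8 in PLA against PL1, 8 in PLA4 against PLA and 7 in PL12 against PL1. With 1 library left out the counts ran from 1 to 3 in all 4 comparisons, 4 to 8 in PLA4 against PL12, 1 to 6 in PLA4 against PL1, 3 to 7 in PLA against PL12, 1 to 6 in PLA against PL1, 0 to 6 in PLA4 against PLA and 1 to 5 in PL12 against PL1. For the line comparisons, no share of all genes called stands beside the counts of an alternative. These counts thus only show how the calls move and are not read as a result about the desmosomal genes. The cause of these shifts was not tested.

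From expected counts per kb, the share of Dsc3 was 0.0247% in PL1, and that of Dsg3 was 76.1% in PLA, 29.2% in PL12 and 82.6% in PL1.

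Signs that turned, on the log2 scale, belonged to differences that were not called with all libraries. With 1 or 2 libraries left out, Dsg2 in PL12 against PL1 ran from -0.0206 to 0.214, Dsg3 in PLA against PL1 from -0.0096 to 0.53, Dsp in PLA against PL12 from -0.0487 to 0.116, Pkp1 in PLA4 against PL1 from -0.487 to 1.21, Pkp1 in PLA against PL1 from -1.22 to 0.535, Pkp2 in PLA against PL1 from -0.32 to 0.31 and Pkp3 in PLA4 against PL1 from -0.0238 to 0.624. On summed profiles Pkp1 ran from -0.0593 to 1.21 and Pkp2 from -0.198 to 0.0411. Dsp in PLA against PL12 was -0.0254 with DESeq2 and with its size factors and -0.0623 with the 1 CPM filter. On summed profiles without the line PLA4, Dsp was -1.003, Jup -0.208 and Pkp3 -0.0981. Pkp1 there was -0.0631 without the line PL12, and Pkp2 was 0.28 without the line PL12 and 0.143 without the line PLA. Pkp2 in PLA against PL1 was 0.0136 with the replicate block, 0.0031 with the exchanged block and 0.0135 with no filter. Of these, 3 passed with 2 libraries left out, Pkp1 in PLA4 against PL1 (adjusted p = 0.0399), Pkp1 in PLA against PL1 (0.00152) and Pkp2 in PLA against PL1 (0.0317).

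With 2 libraries a line and 2 lines a family, differences between libraries, widest in PL1 and PLA4, limit precision. Depth limits Dsc1, and Dsc3 in the PL lines.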
